A study of Danio rerio with 2 samples.

Results

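Very long maternal messenger RNAs were compared between the animal and the vegetal pole of the zebrafish egg. The group holds 235 transcripts, chosen by an annotated length of at least 8000 nt and a sum of at least 100 mapped reads over both libraries, out of 50038 transcripts in the deposited table. A further 333 of the 568 transcripts of that length had fewer reads and are not members. The measured value that chose the members was the read sum, so their presence in the egg is a description and not a result. The ratio between the poles was not used, but a member can reach the limit through 1 library alone. A transcript of 8332 nt, for example, did so with 3 animal and 233 vegetal reads. Both samples were explants of fertilised eggs of the zebrafish (Danio rerio) strain AB, with no treatment named, dechorionated and taken 0 to 20 min after fertilisation, and poly A enriched RNA was sequenced from each. The animal pole gave 1 library of 16533617 mapped reads and the vegetal pole 1 library of 17685736, and the labels do not state how many eggs or clutches were pooled. With 1 library per pole no difference has a replicate check, no test was made, and all intervals below are 95% exact intervals that cover counting error only. Several reads can be PCR copies of 1 molecule, which these intervals do not cover.

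The egg carries RNA made by the mother, since the embryonic genome is still silent at this stage. After fertilisation the cytoplasm streams towards the animal pole, where the embryo forms, and the vegetal pole keeps the yolk and RNAs tethered there during oogenesis. The longest messenger RNAs of vertebrates encode giant proteins such as cytoskeletal linkers, motor heavy chains and ubiquitin ligases, and in zebrafish the linker Macf1 is needed to set up the animal-vegetal axis of the oocyte. The rows of the table are Ensembl transcript identifiers. The files do not pair them with gene names, and 0 of them matched the name tables used here, so no gene name or role is given to any member. Members are called below by their length, and a few by their identifier.

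Members with a higher animal level outnumbered those with a higher vegetal level. Every member had at least 3 animal and 15 vegetal reads, but the members were chosen by their read sum. Of the 235, 163 were less than 2-fold apart in RPM (reads per 1000000 mapped reads of the library). Most of all transcripts with 100 or more reads were so too, and this is no trait of long transcripts. The animal library was 2-fold or more higher for 46 members (19.6%), against 11.5% of all 13958 transcripts with 100 or more reads. The vegetal library was 2-fold or more higher for 26 members (11.1%), against 17.5% of all. In all, 147 members (62.6%) had a lower RPM in the vegetal library, against 48.4% of all transcripts with 100 or more reads. The median log2 ratio of the members (vegetal over animal) was -0.24, with an interquartile range of -0.84 to 0.35, and that of all was 0.03 (-0.49 to 0.69).

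The typical counting error was smaller than the typical difference. The median absolute log2 ratio was 0.65 over the members. The median counting error of a ratio, as 1 standard error, was 0.14 in the same log2 units. Over all transcripts with 100 or more reads the values were alike, at 0.58 and 0.13. The counting interval lay wholly beyond 2-fold towards the animal pole for 27 members (11.5%), against 7.19% of all transcripts with 100 or more reads. Towards the vegetal pole it did so for 15 members (6.38%), against 12.3% of all. Among the 66 members with at least 500 reads in each library, 7 (10.6%) were 2-fold or more higher at the animal pole and 4 (6.06%) at the vegetal pole. Their median log2 ratio was -0.20. A minimum in each library leaves out members with few reads at 1 pole, so the rule itself lowers these shares. Of members with 100 to under 300 reads over both libraries, 25 of 80 (31.2%) were 2-fold or more higher at the animal pole and 13 (16.2%) at the vegetal pole. With 1000 or more reads over both libraries the numbers were 11 of 79 (13.9%) and 7 (8.86%). The median counting error was 0.24 in the former range and 0.05 in the latter. Shares of all transcripts in the same read ranges are not given here, so these counts describe the members only.

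**Figure D1:**
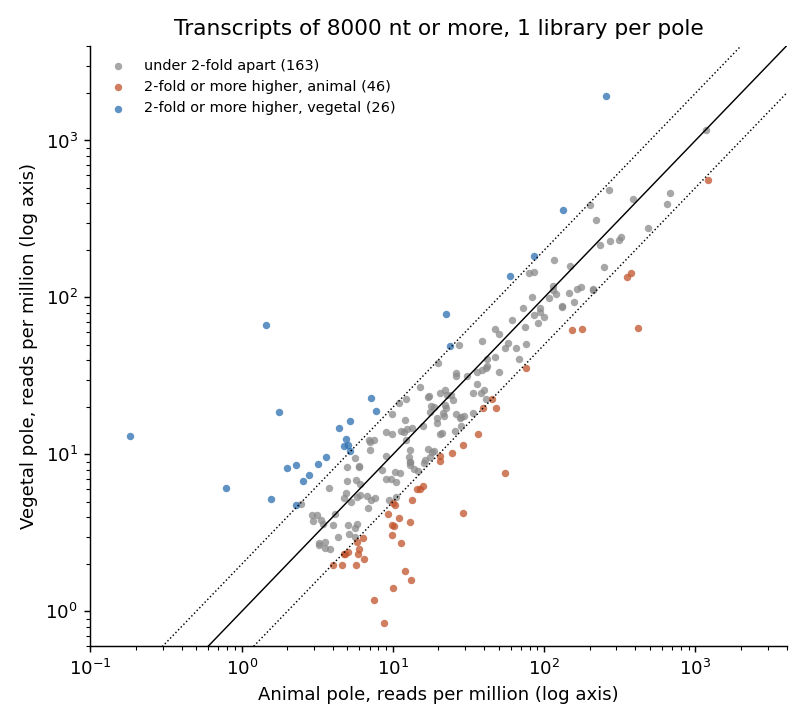
The 235 transcripts by their RPM (reads per 1000000) in the animal (horizontal) and vegetal (vertical) library, both on log axes, 1 point per transcript; the solid line marks equal values and the dotted lines 2-fold. Most points (163) lie between the dotted lines, 46 lie below them and 26 above, and the highest vegetal point is the transcript of 8108 nt at 1931 RPM.

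Together the members took a small and nearly equal share of the 2 libraries. They held 243364 animal reads, 1.47% of that library (1.47 to 1.48%), and 246977 vegetal reads, 1.40% (1.39 to 1.40%). The summed RPM was thus 1.05 times as high in the animal library (interval 1.05 to 1.06). The ratio of the sums moved with 1 of the 2 transcripts left out in turn. ENSDART00000127488 (8108 nt) held 13.8% of the members' vegetal reads, and without it the animal library was 1.20 times as high (1.20 to 1.21). This transcript was picked after seeing the data as the one with most vegetal reads. No member with mostly animal reads was left out in the same way. Without ENSDART00000151125, which had most reads over both libraries, the animal library was 1.059 times as high (1.053 to 1.065). The 10 members with most reads in a library held 41.0% of the members' animal and 46.4% of their vegetal reads, so the sums describe few transcripts and the median describes the typical one.

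The 10 most counted members ranged from 2.16 times as high in the animal library to 7.52 times as high in the vegetal library. ENSDART00000151125 (13210 nt) had most reads over both libraries, 19301 at the animal pole and 20588 at the vegetal pole, or 1167 and 1164 RPM. Its ratio of vegetal to animal was 0.997 (0.978 to 1.02), the nearest to 1 among members with 1000 or more reads. ENSDART00000127488 had 4244 animal and 34143 vegetal reads, 256.7 and 1931 RPM, a ratio of 7.52 (7.28 to 7.77). It was the one member among the 10 most counted that was 2-fold or more higher at the vegetal pole. Next came a transcript of 8469 nt with 20068 animal and 9923 vegetal reads, 2.16 times as high in the animal library (2.11 to 2.22). It was the one transcript of these 10 that was 2-fold or more higher at the animal pole.

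The other 7 of the 10 most counted members were less than 2-fold apart. A transcript of 8184 nt had 10728 animal and 6939 vegetal reads (1.65 times as high in the animal library, 1.60 to 1.70). One of 8114 nt had 8062 and 4891 (1.76 times, 1.70 to 1.83). In the opposite direction, transcripts of 8442 nt (4444 animal and 8602 vegetal reads) and of 8551 nt (3336 and 6861) were 1.81 (1.74 to 1.88) and 1.92 (1.84 to 2) times as high in the vegetal library. These 4 ratios differ from 1 by more than counting error but fall short of 2-fold. The transcript of 8187 nt, with 6418 animal and 7483 vegetal reads, was nearly even at 1.09 (1.05 to 1.13).

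At the vegetal end, a few members had almost no animal reads. ENSDART00000153457 (8355 nt) had 24 animal and 1180 vegetal reads, 1.452 and 66.72 RPM, a ratio of 46.0 (30.7 to 72.0). The reads covered 87.0% of it in the vegetal library and 3.6% in the animal. A transcript of 8332 nt had 3 animal and 233 vegetal reads, a ratio of 72.6 with a wide interval of 24.5 to 355, and its coverage was 52.0% in the vegetal library and 1.2% in the animal. Reads placed at random along the length would cover 99.9% and 76.0% of these transcripts in the vegetal library and 13.6% and 1.8% in the animal. Coverage depends on the number of reads, so these gaps are no separate evidence of a difference. A transcript of 8710 nt had 29 animal and 328 vegetal reads, a ratio of 10.6 (7.22 to 16). Smaller differences in the same direction were measured for a transcript of 9140 nt, with 369 animal and 1384 vegetal reads (3.51 times, 3.12 to 3.94), and for one of 8420 nt, with 2186 and 6377 (2.73 times, 2.60 to 2.86).

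At the animal end, among the 8 most unequal members with 300 or more reads, the lowest vegetal count was 75. Below that limit, which the transcript of 8332 nt with its 3 animal reads also missed, vegetal counts went down to 15. A transcript of 11523 nt had 145 animal and 15 vegetal reads, 10.3 times as high in the animal library (6.07 to 19). The members that follow all had 300 or more reads. ENSDART00000113162 (9867 nt) had 916 animal and 134 vegetal reads, 55.4 and 7.577 RPM, and was 7.31 times as high in the animal library (6.09 to 8.83). A transcript of 9838 nt had 478 animal and 75 vegetal reads (6.82 times, 5.33 to 8.82). ENSDART00000103486 (12546 nt) had 6873 animal and 1131 vegetal reads, 415.7 and 63.95 RPM (6.50 times, 6.10 to 6.93). After them the ratios stepped down, to 2.84 (2.65 to 3.04) for a transcript of 11718 nt with 2941 animal and 1109 vegetal reads. Transcripts of 15869 nt (604 animal and 239 vegetal reads) and 8346 nt (221 and 90) followed at 2.70 (2.32 to 3.15) and 2.63 (2.05 to 3.39). Transcripts of 10963 nt (6166 animal and 2528 vegetal reads) and 10223 nt (5795 and 2399) came next at 2.61 (2.49 to 2.73) and 2.58 (2.46 to 2.71).

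The authors' deposited table of differences, where every entry has an FDR under 0.05, listed 13 members. Of these 8 (3.4% of the members) were listed as higher at the animal pole, against 2.42% of all transcripts with 100 or more reads. The other 5 (2.13% of the members) were listed as higher at the vegetal pole, against 5.03% of all. The authors' deposited table gave log2 fold changes (vegetal over animal) of 2.89 for ENSDART00000127488 and 5.49 for ENSDART00000153457. For ENSDART00000103486 and ENSDART00000113162 the authors' deposited table gave -2.72 and -2.89. That table comes from the same 2 libraries and is no independent check of the ratios above.

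The excess towards the animal pole was read along transcript length. Under 1000 nt, 8.11% of 3701 transcripts with 100 or more reads were 2-fold or more higher at the animal pole and 18.2% at the vegetal pole (median log2 ratio 0.10). The shares were about equal at 4000 to under 6000 nt, at 16.1% and 16.4% of 1245 transcripts (median -0.09). At 6000 to under 8000 nt they were 18.9% and 11.3% of 417 (median -0.15), so the nearest shorter transcripts had shares close to those of the members. The order of the poles is therefore not particular to the limit of 8000 nt. Neither pole had a replicate library. Whether the change with length belongs to the poles or to a length-dependent difference between the libraries was therefore not tested.

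**Figure D2:**
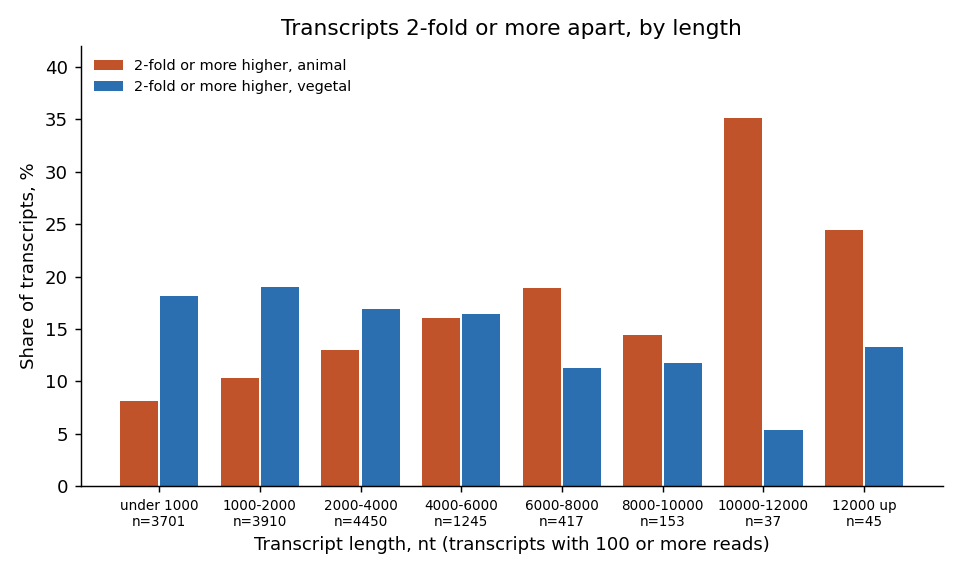
Share of transcripts (vertical, %) that were 2-fold or more higher in the animal or in the vegetal library, in 8 bands of transcript length (horizontal, nt), over transcripts with 100 or more reads; n is the number of transcripts in a band. The animal bars go from 8.11% under 1000 nt to 35.1% at 10000 to 12000 nt, while the vegetal bars go from 18.2% to 5.41%, with 37 transcripts in the latter band. The change is not steady: the animal and vegetal bars are 14.4% and 11.8% at 8000 to 10000 nt. At 12000 nt or more they are 24.4% and 13.3%.

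Within the members the band of 10000 to under 12000 nt stood lowest. Of its 37 transcripts 13 (35.1%) were 2-fold or more higher at the animal pole and 2 at the vegetal pole, and the median log2 ratio was -0.57. At 8000 to under 10000 nt the numbers were 22 and 18 of 153 (14.4% and 11.8%, median -0.19). At 12000 nt or more they were 11 and 6 of 45 (24.4% and 13.3%, median -0.17). In the band of 8000 to under 10000 nt the counting interval lay wholly beyond 2-fold for 10 animal-higher and 12 vegetal-higher members. The order was thus reversed there. At 10000 to under 12000 nt these counts were 9 and 1, and at 12000 nt or more 8 and 2. The ratio therefore did not go down steadily with length. Across the 235 members, which share the same 2 libraries, the log2 ratio had a Spearman's rho of -0.14 with length. With the level per length it was 0.06.

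The 5 longest members were all 2-fold or more apart, in both directions. The longest, of 29476 nt, had 38 animal and 84 vegetal reads, 2.07 times as high in the vegetal library (1.39 to 3.12), and one of 25178 nt had 86 and 186 (2.02 times, 1.56 to 2.64). Neither interval lies wholly beyond 2-fold, and both fell short of 2-fold with upper-quartile scaling (log2 ratios of 0.89 and 0.86). The transcript of 25178 nt did so also with the trimmed mean (0.99) and with the median of all set to 0 (0.98). The other 3 were higher at the animal pole. A transcript of 27998 nt had 219 animal and 28 vegetal reads (8.37 times, 5.63 to 12.9), one of 27124 nt had 187 and 48 (4.17 times, 3.02 to 5.85), and one of 23719 nt had 165 and 25 (7.06 times, 4.62 to 11.2). These transcripts were thinly covered, with at most 26.0% of the length reached in either library.

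**Figure D3:**
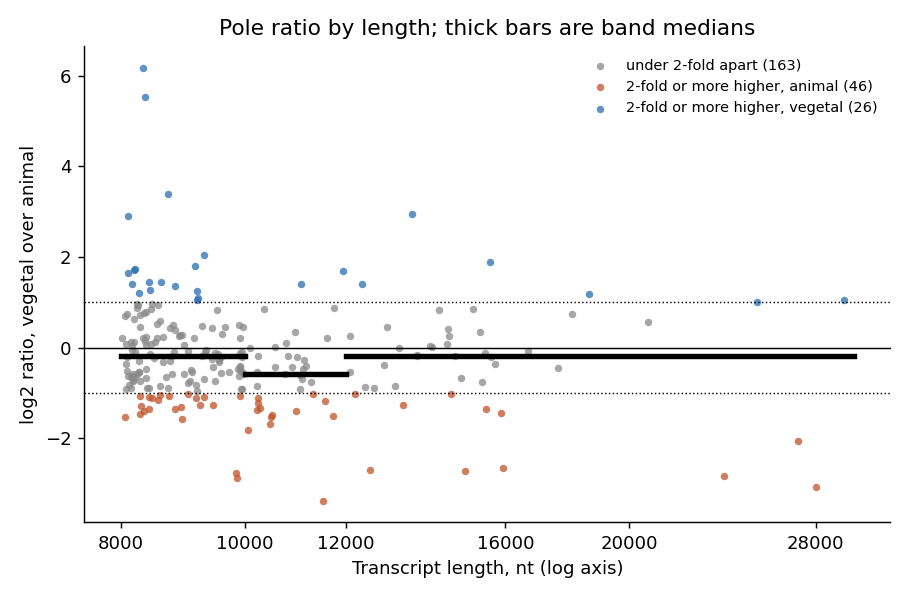
The log2 ratio of vegetal to animal RPM (vertical) against transcript length (horizontal, nt, log axis) for the 235 members; dotted lines mark 2-fold and thick bars the median of 3 length bands. The medians are -0.19, -0.57 and -0.17 from the shortest to the longest band, and of the 5 points furthest to the right 3 lie below and 2 above the 2-fold lines.

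The median ratio lay towards the animal pole at low and at high levels. Levels are compared per length here, as RPKM (reads per kilobase per 1000000 reads) recomputed from the reads and averaged over both libraries. Under 1 on this scale, 26 of 85 members were 2-fold or more higher at the animal pole and 14 at the vegetal pole (median log2 ratio -0.42). These are 30.6% and 16.5%, against 21.5% and 10.8% of the 65 transcripts under 4000 nt in the same range. Transcripts of 6000 to under 8000 nt had 22.5% and 11.7%. Levels within this range were not matched. The median level was 0.488 in the members, 0.927 under 4000 nt and 0.642 at 6000 to under 8000 nt. At 1 to 4 the numbers were 12 and 6 of 87 (13.8% and 6.9%, median -0.19), against 14.4% and 21.2% of transcripts under 4000 nt. At 4 to 16 they were 4 and 4 of 39 (10.3% each, median -0.18), against 11.6% and 20.5%, and at 16 or more 4 and 2 of 24 (16.7% and 8.33%, median -0.48), against 7.76% and 14.2%. For 6000 to under 8000 nt these 3 upper ranges had 17.9%, 18.1% and 16.2% at the animal pole and 13.6%, 12% and 5.41% at the vegetal pole. At 1 to 4 the median counting error was 0.12 in the members and 0.24 under 4000 nt. At 4 to 16 it was 0.05 and 0.16. A larger error can by itself raise the 2-fold shares. Transcripts under 4000 nt had median log2 ratios of -0.15, 0.06, 0.15 and 0.00 in the same 4 ranges. Transcripts of 6000 to under 8000 nt had -0.18, 0.03, -0.15 and -0.36, so at 4 to 16 the median of the members was close to theirs. The 2-fold shares in that range were not alike, at 10.3% for either pole in the members. At 6000 to under 8000 nt they were 18.1% (animal) and 12% (vegetal).

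Coverage, the share of a transcript's length reached by a read, was alike between the poles for the typical member. Its median was 51.0% at the animal pole and 49.0% at the vegetal pole, and the median difference (vegetal minus animal) was 0.0 percentage points, against 1.0 over all transcripts with 100 or more reads. It was higher in the animal library for 116 members, higher in the vegetal for 106 and equal for 13. Coverage of 90% or more was reached by 31 members at the animal pole and 35 at the vegetal pole. Spearman's rho of coverage between the libraries was 0.86 across the members, which were read in the same 2 libraries at similar depths.

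Coverage followed the reads where the poles differed most. The 46 animal-higher members had a median coverage of 45.0% at the animal pole and 21.0% at the vegetal pole, and the animal value was the higher in 42 of them. The 26 vegetal-higher members had 19.5% and 47.5%, and the vegetal value was the higher in all 26. Coverage depends on the number of reads, so this is no separate evidence of a difference. The widest gap belonged to ENSDART00000153457 (3.6% against 87.0%), followed by the transcript of 9838 nt (76.0% in the animal against 23.0% in the vegetal library).

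**Figure D4:**
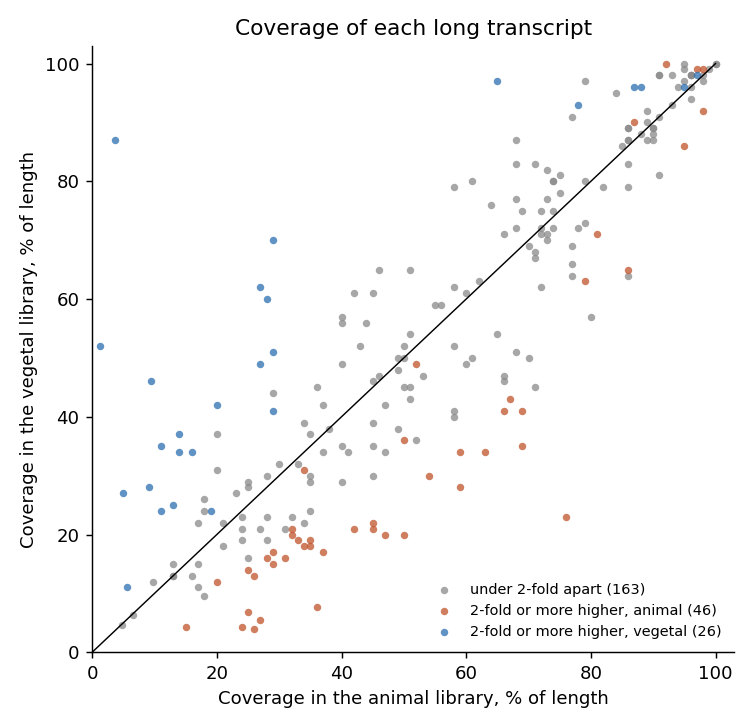
Coverage of each of the 235 members (% of length) in the animal (horizontal) and the vegetal library (vertical); the line marks equal coverage and colours mark members 2-fold or more apart in RPM. All 26 vegetal-higher members lie above the line and 42 of the 46 animal-higher members below it, while 4 animal-higher members with many reads lie on the upper side at the top right.

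Among well-counted members the vegetal library reached more of the transcript with fewer reads in several cases. The vegetal coverage was higher despite fewer vegetal reads in 22 members, against 10.4% of all transcripts with 100 or more reads. The reverse, higher animal coverage despite fewer animal reads, was found in 9 members, against 9.40% of all. As shares of all members this is 9.36% and 3.83%. Only transcripts with fewer reads in the library concerned can meet such a rule. Of the 138 members with fewer vegetal reads 15.9% did so, against 23.9% of all such transcripts with 100 or more reads. Of the 97 members with fewer animal reads 9.28% did so, against 16.7%. Both shares were thus lower in the members. Of the 22, 20 had 1000 or more reads, and the median gain was 3.0 percentage points. The transcript of 8469 nt is one of them, with 92.0% of its length covered by 20068 animal reads and 100% by 9923 vegetal reads. A transcript of 8767 nt had the largest gain, from 71.0% with 645 animal reads to 83.0% with 609 vegetal reads. An example of the reverse is a transcript of 8926 nt, covered to 86.0% by 1365 animal and to 64.0% by 1786 vegetal reads.

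Mean depth over the covered bases was low for most members. Its median was 2.5 at the animal pole and 2.6 at the vegetal pole, against 9.5 and 11.0 over all transcripts with 100 or more reads. The median log2 ratio of depth (vegetal over animal, not scaled for library size) was -0.05 over the members and 0.11 over all, where the library totals alone differ by 0.10 in the same units. Depth ranged from 1.0 to 130 in the animal and from 1.2 to 220 in the vegetal library. The highest value of each was held by the transcripts of 8469 nt and 8108 nt.

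Many of the deposited RPKM values of these transcripts were listed as 0. The authors' RPKM was listed as 0 for 84 members (35.7%) at the animal pole and 82 (34.9%) at the vegetal pole, against 6.24% and 4.99% of all transcripts with 100 or more reads. In each case the mean depth was under 2 or the coverage under 10%, and 0 members departed from this. Depth was under 2 in 80 of the 84 and 79 of the 82. As many as 261 animal and 268 vegetal reads were counted for a member listed at 0. Both libraries were at 0 for 62 members, among them 20 of the 46 animal-higher and 7 of the 26 vegetal-higher ones.

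On the deposited RPKM scale about as many members were 2-fold or more higher at the animal pole as at the vegetal pole. With a pseudocount of 1, 22 members were 2-fold or more higher at the animal pole and 21 at the vegetal pole, and with a pseudocount of 0.1 the numbers were 32 and 30. The median log2 ratio was 0.00 with either. On this scale the 62 members listed at 0 in both libraries count as even, whatever their reads. By reads, 15 of the 131 members with an RPKM above 0 in both libraries were 2-fold or more higher at the animal pole. At the vegetal pole 8 were, and the median log2 ratio of the reads over the 131 was -0.19. Shares of all transcripts on the RPKM scale, or above 0 in both libraries, are not given here. These counts thus describe the members only and are not set against a background. How far the values listed at 0 and the pseudocount each account for the change was not tested.

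Coverage was set beside what the number of reads allows. Coverage of 50% or more was reached by 126 members at the animal pole and 117 at the vegetal pole. The reference takes reads of 51.0 bases, the length that coverage, depth and reads together give. If these fell at random along a transcript, every position being equally likely, the expected coverage would follow from the read number alone. The deposited coverage was below this reference by a median of 11.7 percentage points at the animal pole and 11.1 at the vegetal pole, close to the 11.6 and 10.6 of all transcripts with 100 or more reads. In 194 members of the animal and 191 of the vegetal library the shortfall was under 20 points, which is 82.6% and 81.3% of the members against 75.5% and 77.3% of all.

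Some members had their reads on a small stretch, of the same size in both libraries. ENSDART00000145800 (9972 nt) had 162 animal and 239 vegetal reads on 4.8% and 4.7% of its length, about 479 and 469 bases at a mean depth of 17 and 26. Random placement would have reached 56.3% and 70.5%. ENSDART00000135959 (10960 nt) had 430 and 584 reads on 13.0% of its length in either library. In all, 4 members had under 15% coverage in both libraries at a depth of 5 or more, a limit chosen after the values were seen, and none of the 4 was 2-fold apart. ENSDART00000103486, one of the most unequal members, was covered to 52.0% at the animal pole and 49.0% at the vegetal pole. Its reads would reach 100% and 99% if placed at random along the length. For these transcripts the reads stand for a part of the annotated length, and a level per length understates the covered part.

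**Figure D5:**
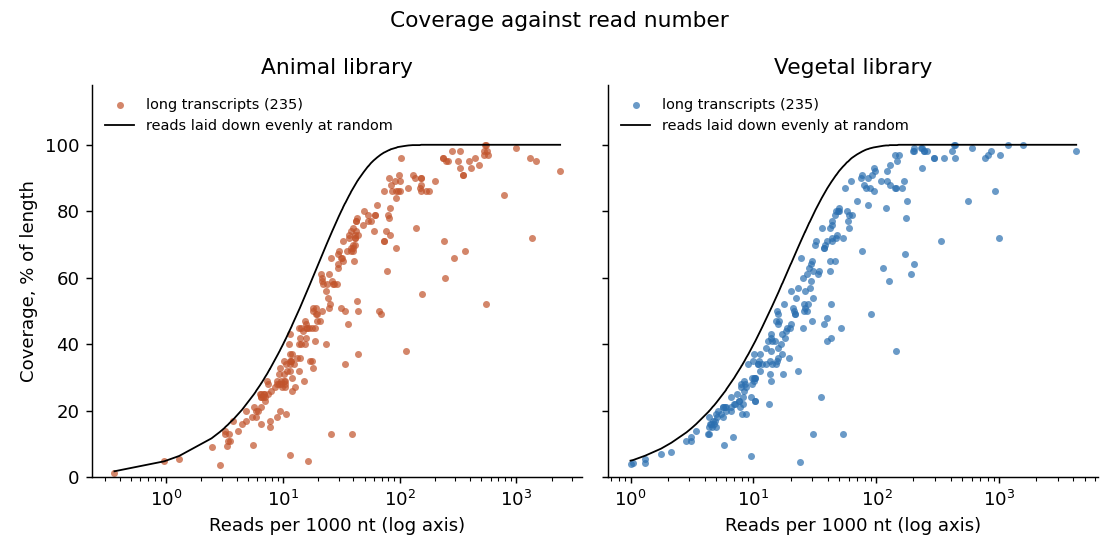
Coverage (% of length, vertical) against reads per 1000 nt (horizontal, log axis) of the 235 members in the animal (left) and the vegetal library (right). The line is the coverage that reads placed at random along the length would give. Most points run just below the line in both libraries, by a median of 11.7 and 11.1 percentage points, and a few members with many reads lie far under it.

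Some members shared their values with another member. In 4 pairs the reads of each library differed by no more than 2% and the covered bases by no more than 10%, a rule set after the values were seen. ENSDART00000091588 (9937 nt) and ENSDART00000136957 (9950 nt) had 3492 and 3483 animal reads, 1990 and 1981 vegetal reads, and the same coverage of 91.0% and 98.0%. Whether the paired rows count the same reads was not tested, since the treatment of reads shared between isoforms is not given in the sources used here. The number of members is a number of transcripts and not of genes. With 1 of each pair left out, 45 members were 2-fold or more higher at the animal pole and 26 at the vegetal pole.

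The transcripts nearest to the limits of the group varied among themselves. Just inside the length limit lay transcripts of 8010, 8055 and 8067 nt with log2 ratios of 0.21, 0.70 and -1.52, and just outside it transcripts of 7968, 7969 and 7977 nt with 0.69, -0.90 and 0.21. At the read limit, members with 101, 101 and 102 reads had -1.01, -0.30 and -0.27, and transcripts of the same length class with 94, 95 and 98 reads had -0.53, -1.51 and -2.68.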

How the data were processed

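Poly A enriched RNA from animal and vegetal pole explants was sequenced as 1 library each, after library preparation with a TruSeq kit, per the labels' protocols. The genome build was Zv9 and edgeR was used, per the submitters' processing notes; the sources used here do not give the aligner, the counter or the use of strand. Per the file headers, the authors deposited for each transcript the count of mapped reads, the percent of its length covered, the mean depth (a coverage signal) and the RPKM. The authors' second deposited table gives log2 fold changes with p-values and FDR.

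Reads were scaled per 1000000 of the column sum. A rule of size of 2-fold was used because 1 library per pole allows no test. Each ratio has a 95% interval from its counts, exact by Clopper and Pearson. The calculation was tested on simulated data. Alternatives covered scaling (edgeR 4.0.16, DESeq2 1.42.0, R 4.3.3), length and read limits, fold and pseudocount. The rest was computed in Python 3.11.15 (scipy 1.17.1, numpy 2.4.6, pandas 2.3.3; matplotlib 3.10.9 for figures). Members, lists and rules were chosen with earlier results of these data known. The transcripts named are the 10 with most reads, the 8 most unequal each way with 300 or more reads, the 5 longest, the 5 nearest to even and the 3 most and least covered with 1000 or more reads, the 5 with the widest coverage difference, 10 in the authors' table, and those at the limits; not all are printed. Transcripts of 8767, 8926, 9972 and 11523 nt and the pairs were named after their values were seen. Gene lists prepared for this comparison were not used, since no identifier could be tied to a gene.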

Additional observations from a re-analysis of the deposited data

How the results depend on the processing

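The animal-higher excess of 46 against 26 members kept its order under the 4 other scalings, which gave 43 to 58 against 22 to 26. Upper-quartile scaling moves every log2 ratio by -0.16; the others move it by 0.04 or less. The log2 ratio of the summed reads, -0.08, was -0.10 (trimmed mean), -0.05 (median of ratios), -0.23 (upper quartile) and -0.11 (median of all set to 0). It was -0.27 without the member with most vegetal reads and -0.07 with 1 of each near-equal pair left out. Both of these were chosen after seeing the data. The planned removal of the member with most reads left it at -0.08. With no read minimum but 1 or more reads in each library 116 against 63 of 447 transcripts were apart, with 500 or more reads 17 against 8, from 6000 nt 125 against 73 and from 10000 nt 24 against 8; the last 2 gave summed log2 ratios of -0.19 and -0.39, and from 10000 nt the median coverage difference was -3.0 points. These limits change which transcripts are counted. At 1.5-fold the numbers were 82 and 45, at 4-fold 9 and 6, and with the counting interval wholly beyond 2-fold 27 and 15. Apart from the interval counts, shares of all transcripts under these limits and folds are not given here. The counts thus show only the order of the poles among the transcripts counted. The deposited RPKM gave 22 animal-higher members (pseudocount 1) and a median of 0.00, where members listed at 0 in both libraries count as even. Depth per base of the whole transcript had a median log2 ratio of -0.15, against -0.05 over covered bases. Of 234 recomputed ratios of named transcripts 51 moved beyond their counting interval, 30 of them on the RPKM scale. Of the 24 named transcripts 2-fold apart, 7 fell under 2-fold on the deposited RPKM scale with a pseudocount of 1 and 6 with 0.1, and 6 had a log2 ratio of exactly 0.00 with either. With upper-quartile scaling 2 fell under 2-fold, with the trimmed mean 1, with the median of all set to 0 also 1 and with the median of ratios 0; a scaling moves every ratio alike. No paired analysis was possible because 1 library stands for each pole, and for the same reason none could be left out. A median of 496 reads per member limits the precision of single ratios.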

Other observations

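Very long transcripts below the read limit were also looked at. Of the 333 with fewer than 100 reads, 56 had no read in either library, 112 had 1 to 9 reads and 165 had 10 to 99. Among the last, 55 (33.3%) were 2-fold or more higher at the animal pole and 27 (16.4%) at the vegetal pole, against 21.8% and 23.4% of all 10240 transcripts with 10 to 99 reads. Their median log2 ratio (vegetal over animal) was -0.47, against 0.02 for all with such counts. Summed, they had 3680 animal and 2948 vegetal reads, a vegetal to animal ratio of 0.749 (0.713 to 0.786) after scaling by the library totals. The counting interval lay wholly beyond 2-fold for 21 of the 165 (12.7%) towards the animal and 7 (4.24%) towards the vegetal pole, against 5.05% and 6.31% of all with 10 to 99 reads. Of the 165, 20 (12.1%) were listed in the authors' deposited table, against 5.89% of all with 10 to 99 reads. Their reads reached a median of 6.1% of the length at the animal pole and 4.4% at the vegetal pole.

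The longest transcript of the table, ENSDART00000109099 with 93957 nt, had 26 animal and 5 vegetal reads on 1.1% and 0.27% of its length. At such coverage the reads do not show that the whole transcript is present in the egg.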
